A study of Mus musculus with 15 samples.

Results

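The chemokine Cxcl12 and its 2 receptors, Cxcr4 and Ackr3, were followed in fibroblasts and epicardial stromal cells of the mouse heart. The 3 genes were chosen by name, and all 3 were found among the 13513 genes that have a value under their name and the 22206 probe sets of the array. Affymetrix arrays measured RNA from 3 groups of cells, with 5 arrays in each group and 15 in all, and the design text describes the 5 of each group as biological replicates. EpiSC are epicardial stromal cells from hearts taken 5 days after myocardial infarction. Activated cardiac fibroblasts (aCF) came from infarcted hearts at the same time, and cardiac fibroblasts (CF) came from unstressed hearts. All mice were wild-type C57BL/6 aged 8 to 12 weeks.

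The groups also differed in how the cells were obtained. Shear in collagenase solution released EpiSC from the heart surface, whereas aCF and CF were taken from the digested ventricles after the atria were removed. CF were isolated with no shear. No sham-operated group is named in the labels, so infarction, surgery and isolation cannot be told apart between infarcted and unstressed hearts. Likewise, cell type and route of isolation cannot be told apart between EpiSC and aCF. No sort or gate is described in the sources used here. In such bulk samples, fewer cells of a type and less RNA per cell cannot be told apart.

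Cxcl12, also called SDF-1, is a chemokine made by stromal cells that attracts and retains cells carrying its receptors. Cxcr4 is its signalling receptor, couples to G proteins and is known for holding blood-forming cells in the bone marrow and for guiding leukocytes. Ackr3, formerly Cxcr7, is an atypical receptor: it recruits beta-arrestins in place of G proteins, takes up Cxcl12 and delivers it for degradation, and in mice it is needed for normal formation of the semilunar valves. In the infarcted heart the Cxcl12 pathway is known for the recruitment of leukocytes and for vessel growth.

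The names of the genes rest on an inference about the deposited table. Genes that usually vary together did not do so in the order of rows as deposited, and no source used here states why. For 52 probe sets of cell cycle genes, the mean pairwise correlation of the deviations from the group means was 0.196 when each value was taken from 6900 rows further on. It was 0.00416 as deposited and reached no more than 0.0719 at the other of the 9782 offsets tried, and identifiers of chromosomes 10 and 11 needed 3 more rows. Across chromosome 1, which carries Ackr3 and Cxcr4, 21 probe sets of co-varying lists had a mean correlation of 0.268 at this offset. At any other of 51 nearby shifts it was at most 0.150. Across chromosome 6, which carries Cxcl12, 14 such probe sets gave 0.222, against at most 0.167. That wider list was chosen after 3 cell cycle probe sets on chromosome 6 had given 0.296, below the 0.391 found at another shift. Cell cycle probe sets, 9 of the 21 on chromosome 1 and 3 of the 14 on chromosome 6, had also served to find the offset. These checks by chromosome are therefore not independent of it. As a check that used no co-variation, 120 sensory receptor probe sets on chromosome 6, which these cells should hardly express, had their lowest median within-group SD at this offset, 0.0958 against 0.0985 or more elsewhere. The 4 olfactory receptor rows that lie 2 to 5 rows before Cxcl12 had within-group SDs of 0.140 to 0.158, above that median. On chromosome 1 the same check with 29 probe sets did not pick this offset, with 0.123 against 0.114 at the lowest. All results by gene name below hold only if this pairing is right, also to the single row.

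The authors deposited log2 values from which the median of all 15 arrays had been subtracted, probe set by probe set. A value of 0 is therefore the middle of the study for that gene, and neither levels nor signal over background can be read from it. Arrays correlated with others of their group at 0.551 to 0.671 in EpiSC, 0.213 to 0.540 in aCF and 0.743 to 0.845 in CF. With centred values these correlations also depend on how far a group lies from the middle of the study. They therefore do not rank the groups by spread between arrays. The aCF arrays 4 and 5 (aCF4 and aCF5) stood apart from the other aCF arrays in an earlier analysis of these data, and results that use aCF were computed with and without them. Of 9 epicardial and mesothelial markers, 7 were higher in EpiSC than in aCF after Benjamini-Hochberg adjustment of limma's p-values, which 4.61% of all probe sets passed as higher. For 12 fibroblast markers, the mean per array ran from -0.56 to -0.07 in EpiSC, 0.05 to 0.18 in aCF and -0.13 to -0.05 in CF. These means join markers that went opposite ways. By Benjamini-Hochberg adjustment 0 were higher and 8 lower in EpiSC against aCF, 4 and 3 in aCF against CF, and 4 and 7 in EpiSC against CF. Of all probe sets, 9.61%, 18.1% and 32.2% passed it in these comparisons. Centred values cannot show whether any marker was absent.

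Each member was measured by 1 probe set with a value. Cxcl12 (probe set TC0600001313.mm.2) lies on chromosome 6 at chr6:117168535-117181368. Ackr3 (TC0100000870.mm.2) lies on chromosome 1 at chr1:90203980-90215724, and Cxcr4 (TC0100003029.mm.2) lies further along the same chromosome at chr1:128588199-128592299, all in GRCm38.p6. The bases just before each annotated start are shown to place the probe sets' genes and let their promoters be compared. They cover chr6:117168285-117168534 on the plus strand for Cxcl12, chr1:90203730-90203979 on the plus strand for Ackr3 and chr1:128592300-128592549 on the minus strand for Cxcr4. The sequences are from RefSeq on GRCm38.p6, 5′ to 3′ on the gene's strand. Capitals mark GC boxes (GGGCGG or CCGCCC) and TATA boxes (TATAAA or TTTATA), searched on both strands.
Cxcl12: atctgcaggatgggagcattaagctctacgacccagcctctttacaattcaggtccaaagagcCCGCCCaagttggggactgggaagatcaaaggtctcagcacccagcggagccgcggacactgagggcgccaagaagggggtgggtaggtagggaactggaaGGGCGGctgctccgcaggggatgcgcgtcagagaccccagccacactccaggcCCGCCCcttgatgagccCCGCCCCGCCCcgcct
Ackr3: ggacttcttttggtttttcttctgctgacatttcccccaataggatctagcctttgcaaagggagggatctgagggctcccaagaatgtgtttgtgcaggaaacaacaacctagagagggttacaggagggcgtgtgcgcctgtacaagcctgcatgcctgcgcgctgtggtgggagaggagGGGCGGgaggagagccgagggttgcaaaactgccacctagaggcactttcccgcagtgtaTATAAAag
Cxcr4: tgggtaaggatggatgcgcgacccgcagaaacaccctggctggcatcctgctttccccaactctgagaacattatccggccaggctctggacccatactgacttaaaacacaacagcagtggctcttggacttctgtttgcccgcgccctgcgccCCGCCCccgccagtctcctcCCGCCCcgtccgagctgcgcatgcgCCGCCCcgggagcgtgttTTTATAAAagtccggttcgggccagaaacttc

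The Cxcl12 window of 250 bases held 5 GC box matches, of which the last 2 overlap, and 0 TATA box matches. The Ackr3 window held 1 GC box and 1 TATA box match, which begins 8 bases before the annotated start. The Cxcr4 window held 3 GC boxes and 2 overlapping TATA box matches on opposite strands, the first of which begins 32 bases before the start. GC content was 64.4% for Cxcl12, 54.0% for Ackr3 and 61.2% for Cxcr4. Among 32851 promoter windows of this length, 32.7% held a GC box and 12.4% a TATA box. Of the hypoxia response element core, only the form ACGTG (or CACGT) was searched. It was in 16.6% of windows and in 0 of the 3 windows here. The other form, GCGTG, was not searched, but its letters occur in the Ackr3 and Cxcr4 windows. These are matches of letters only and say nothing of factor binding.

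The ligand, Cxcl12, did not pass the test in any comparison, and its values overlapped between all pairs of groups. Cxcl12 was at -0.28, 0.48, -0.28, 0.54 and -0.02 in the 5 EpiSC arrays. It was at 0.15, 0.00, 0.01, 0.52 and 0.41 in the aCF arrays, and at 0.19, -0.16, -0.13, -0.03 and -0.19 in the CF arrays. The EpiSC arrays were split, with arrays 2 and 4 high and arrays 1 and 3 low. None of the aCF arrays was below 0, and 4 of the 5 CF arrays were below 0.

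Cxcl12 averaged 0.09 ± 0.40 in EpiSC, 0.22 ± 0.24 in aCF and -0.06 ± 0.15 in CF (SD, n = 5 each), so that the order of the means was aCF, EpiSC, CF and no neighbours in it differed beyond the spread. The log2 difference of aCF from CF was 0.28 ± 0.12 (SE, 95% interval 0.02 to 0.54). Its unadjusted p was 0.0369 with limma, the Bonferroni adjusted p was 1, the Benjamini-Hochberg adjusted p was 0.131, and the exact permutation test gave p = 0.0714 (2-sided). Without aCF4 and aCF5, which held the highest Cxcl12 values of the group, the difference was 0.12 with an unadjusted limma p of 0.261. EpiSC differed from aCF by -0.13 (95% interval -0.55 to 0.29) and from CF by 0.15 (-0.24 to 0.54), each with a limma Bonferroni adjusted p of 1. The sign of the first of these turned, to 0.03, without aCF4 and aCF5.

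**Figure D1:**
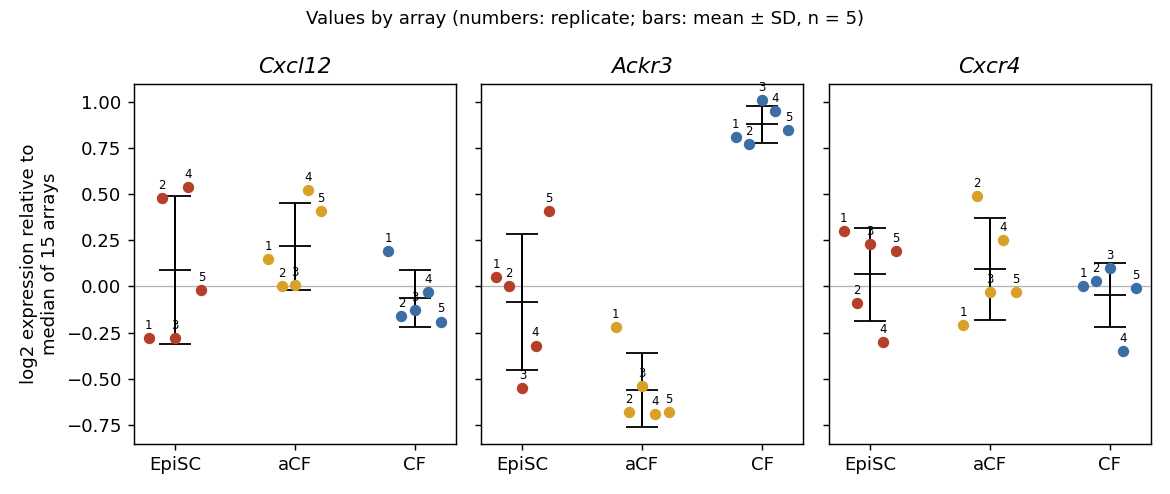
Values of Cxcl12, Ackr3 and Cxcr4 in each array, as log2 expression with the median of the 15 arrays set to 0, for EpiSC, aCF and CF. Numbers give the replicate and bars the mean ± SD (n = 5 per group). The 5 CF values of Ackr3, 0.77 to 1.01, lie above all EpiSC and aCF values, while the groups overlap for Cxcl12 and Cxcr4.

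The signalling receptor Cxcr4 also did not pass the test in any comparison. Cxcr4 was at 0.30, -0.09, 0.23, -0.30 and 0.19 in EpiSC. It was at -0.21, 0.49, -0.03, 0.25 and -0.03 in aCF, and at 0.00, 0.03, 0.10, -0.35 and -0.01 in CF. Each group held values on both sides of 0, and CF array 4 lay apart from the other CF arrays. The means were 0.07 ± 0.25 in EpiSC, 0.09 ± 0.28 in aCF and -0.05 ± 0.18 in CF (SD, n = 5 each).

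For Cxcr4 the log2 difference of EpiSC from aCF was -0.03 ± 0.15 (SE, 95% interval -0.37 to 0.32), and leaving out any of EpiSC2, EpiSC4, aCF2 or aCF4 turned its sign, with values of 0.01, 0.06, 0.07 and 0.01 in that order. The difference of aCF from CF was 0.14 ± 0.13 (-0.16 to 0.44), and that of EpiSC from CF was 0.11 ± 0.13 (-0.17 to 0.40). The limma Bonferroni adjusted p was 1 in all 3 comparisons, and the exact permutation tests gave p = 0.857, 0.397 and 0.429. The intervals leave room for differences of up to 0.44 in size on the log2 scale.

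The scavenging receptor Ackr3 was lower in aCF than in CF, by 2.71-fold, and it was the only one of the 3 genes to pass the Bonferroni threshold in any of the 3 comparisons. Ackr3 was at 0.05, 0.00, -0.55, -0.32 and 0.41 in EpiSC. It was at -0.22, -0.68, -0.54, -0.69 and -0.68 in aCF, and at 0.81, 0.77, 1.01, 0.95 and 0.85 in CF. The aCF and CF values were separated by a gap of 0.99, which no array bridged. Of the EpiSC values, 3 lay between those of the other groups and 2 lay within the aCF range.

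Ackr3 averaged -0.08 ± 0.37 in EpiSC, -0.56 ± 0.20 in aCF and 0.88 ± 0.10 in CF (SD, n = 5 each). It fell in aCF relative to CF by 1.44 ± 0.10 on the log2 scale (SE), which is 2.71-fold (95% interval 2.34 to 3.15). The limma Bonferroni adjusted p was 0.000507, and the exact permutation test gave 0.00794, the smallest p that 252 relabellings allow. In this comparison 1.53% of all 22206 probe sets passed the Bonferroni threshold, 1.21% as higher and 0.32% as lower. By Benjamini-Hochberg adjustment 8.74% passed as higher and 9.38% as lower. By size of the difference, 46 of the 13513 named genes had a lower one than Ackr3.

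The call on Ackr3 in aCF against CF held in 10 of 10 fits that left out an array in turn, with a limma adjusted p of at most 0.00457. Without aCF4 and aCF5 the difference was -1.36 with a limma adjusted p of 0.0221. In the same 2 groups the mean of 13 endothelial markers ran from -0.17 to 0.43 per array in aCF and 0.16 to 0.56 in CF, and the mean of 9 pericyte and smooth muscle markers from 0.33 to 0.65 in aCF and -0.61 to 0.15 in CF. For 13 macrophage markers it ran from 0.15 to 0.39 in aCF and -0.21 to 0.02 in CF, and for 13 heart muscle markers from -0.54 to 0.35 in aCF and 0.20 to 0.42 in CF. By Benjamini-Hochberg adjustment 8.74% of all probe sets were higher and 9.38% lower in aCF. Of 13 endothelial markers, 1 was higher and 3 were lower. Of the 9 pericyte and smooth muscle markers 5 were higher: Rgs5, Cspg4, Des, Tagln and Mcam. Higd1b at 0.33, Kcnj8 at -0.30, Abcc9 at -0.62 and Vtn at -0.30 did not pass, so their mean joins markers that went opposite ways. Among the macrophage markers 6 of 13 were higher, and 1 of 13 heart muscle markers was lower. Their part in the result was not tested.

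In EpiSC against CF, Ackr3 differed by -0.96 ± 0.16 on the log2 scale (SE, 95% interval -1.31 to -0.61), a 1.95-fold lower value. All 5 EpiSC values lay below all 5 CF values, with a gap of 0.36, and the exact permutation test gave p = 0.00794. The limma Bonferroni adjusted p was 1, while the Benjamini-Hochberg adjusted p was 0.00111. In this comparison 2.91% of all probe sets passed Bonferroni adjustment (1.97% as higher, 0.941% as lower) and 32.2% passed Benjamini-Hochberg adjustment (14.5% as higher, 17.7% as lower), so that passing the second of these was common. By size, 415 named genes had a lower difference. The mean of the endothelial markers per array ran from -0.68 to -0.50 in EpiSC and 0.16 to 0.56 in CF, and by Benjamini-Hochberg adjustment 9 of the 13 were lower in EpiSC and 1, Esam at 0.75, was higher. That of the heart muscle markers ran from -0.72 to -0.38 in EpiSC and 0.20 to 0.42 in CF, with 9 of 13 lower. For the pericyte and smooth muscle markers it ran from -1.03 to -0.62 in EpiSC and -0.61 to 0.15 in CF, with 2 of 9 higher and 6 lower. Their part in the result was not tested.

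In EpiSC against aCF, Ackr3 differed by 0.48 ± 0.17 (SE, 95% interval 0.10 to 0.86). The groups overlapped, since EpiSC3 and EpiSC4 lay within the range of the aCF values. The exact permutation test gave p = 0.0397 and limma an unadjusted p of 0.0187, but the limma Bonferroni adjusted p was 1 and the Benjamini-Hochberg adjusted p 0.115. Here 0.666% of all probe sets passed Bonferroni adjustment (0.401% as higher, 0.266% as lower). Benjamini-Hochberg adjustment was passed by 9.61% (4.61% as higher, 5.01% as lower), and none of the 3 members passed either. The order of the Ackr3 means was therefore CF, EpiSC, aCF, with only the step between CF and EpiSC free of overlap between neighbours. By Benjamini-Hochberg adjustment 7 of 9 pericyte and smooth muscle markers were lower in EpiSC and 1 was higher. Lower too were 4 of 13 endothelial, 6 of 13 macrophage and 2 of 13 heart muscle markers, with 0 higher. The part of these markers in the Ackr3 difference was not tested.

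**Figure D2:**
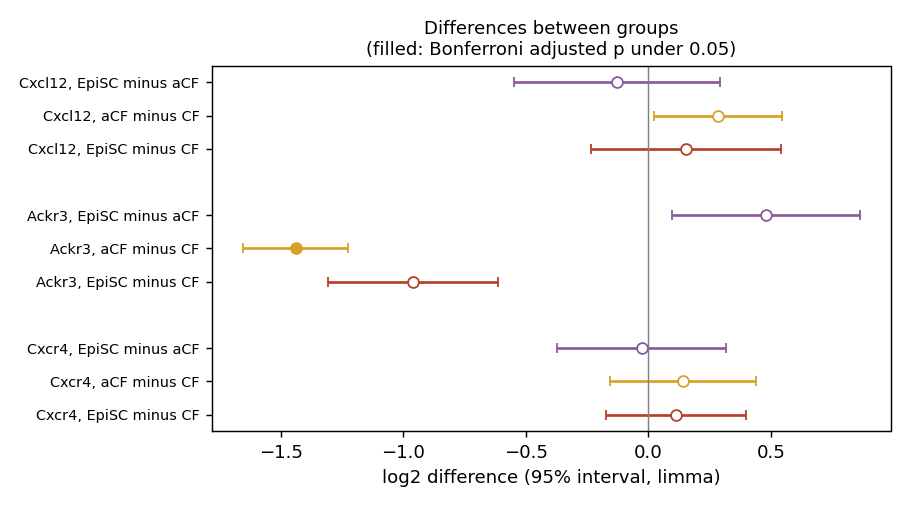
Log2 differences between groups with 95% intervals from limma for Cxcl12, Ackr3 and Cxcr4, for EpiSC minus aCF, aCF minus CF and EpiSC minus CF. The filled point is the 1 of 9 differences past the Bonferroni threshold, Ackr3 at -1.44 in aCF minus CF.

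The other chemokine receptors were set beside Cxcr4 and Ackr3. Of 24 listed, 19 had a value, the 2 receptors included. Of the 17 others, 0 passed the Bonferroni threshold in any of the 3 comparisons with limma. By Benjamini-Hochberg adjustment, 1 was higher and 4 were lower in aCF than in CF, where 18.1% of all probe sets passed it, and the median difference was -0.11, against 0 over all named genes. In EpiSC against CF 0 were higher and 4 lower, and in EpiSC against aCF 1 was higher and 0 were lower. At an unadjusted limma p under 0.05, 1 was higher and 6 were lower in aCF against CF, 0 and 5 in EpiSC against CF, and 1 and 2 in EpiSC against aCF. The share of all probe sets at this unadjusted cutoff was not counted, here or for the lists below. It cannot be below the shares that passed Benjamini-Hochberg adjustment, 18.1%, 32.2% and 9.61% in the same order. Those adjusted shares are also the ones to set beside the Benjamini-Hochberg counts of the lists below. For the Bonferroni counts of those lists the shares are 1.53%, 2.91% and 0.666%, in the same order.

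Of the 5 receptors lower in aCF than in CF by Benjamini-Hochberg adjustment, Ackr3 included, 4 were atypical, a division made after their values were seen. All 5 measured atypical receptors, Ackr1 to Ackr4 and Ccrl2, had differences below 0 in aCF against CF, from -1.44 to -0.20, and Ackr3 had the lowest. Ackr1, which binds many chemokines and is known from the endothelium of venules, was at -0.43, -0.37, -0.12, -0.44 and -0.71 in aCF, against 0.44, 0.78, 0.62, 0.69 and 0.40 in CF. Its groups did not overlap, and its difference was -1.0 ± 0.11 (SE) with a limma Bonferroni adjusted p of 0.0707 and a Benjamini-Hochberg adjusted p of 0.000187. Leaving out aCF3 brought its Bonferroni adjusted p to 0.0340, and fitting all 3 groups together brought it to 0.0137.

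Ackr2, a scavenger of inflammatory CC chemokines known from lymphatic endothelium, was at -0.24, 0.00, 0.35, -0.90 and -1.02 in aCF, against 0.80, 1.17, 1.25, 1.05 and 0.57 in CF. Its difference was -1.33 ± 0.26 (SE), with a limma Benjamini-Hochberg adjusted p of 0.0051, and the lowest aCF values were those of aCF4 and aCF5. Ccrl2, which binds chemerin, differed by -0.79 ± 0.11 (SE) and passed Benjamini-Hochberg adjustment only. Ackr4, a scavenger of Ccl19 and Ccl21, differed by -0.20 and passed neither adjustment. The 14 conventional receptors ranged from -0.52 to 0.44 in the same comparison, with a median of -0.03. Among them Cx3cr1, the fractalkine receptor, at 0.44 and Ccr8 at -0.23 passed Benjamini-Hochberg adjustment only. Cx3cr1 is also 1 of the 13 macrophage markers, and the marker values given beside Ackr3 are those of the same arrays; their part in the receptors' differences was not tested.

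In EpiSC against CF the atypical receptors were again all below 0, from -1.44 for Ackr2 to -0.32 for Ccrl2. Of the 5, 3 passed Benjamini-Hochberg adjustment, which 17.7% of all probe sets passed as lower in this comparison. The conventional receptors had a median of -0.03 there, and Cxcr6 at -0.49 and Ccr8 at -0.28 passed it. In EpiSC against aCF, Ackr1 differed by 0.45 ± 0.13 (SE) with a limma Benjamini-Hochberg adjusted p of 0.0478. The 14 conventional receptors ranged from -0.38 to 0.11 in that comparison and none passed either adjustment. The comparisons share groups of arrays, so their values are not independent of each other.

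**Figure D3:**
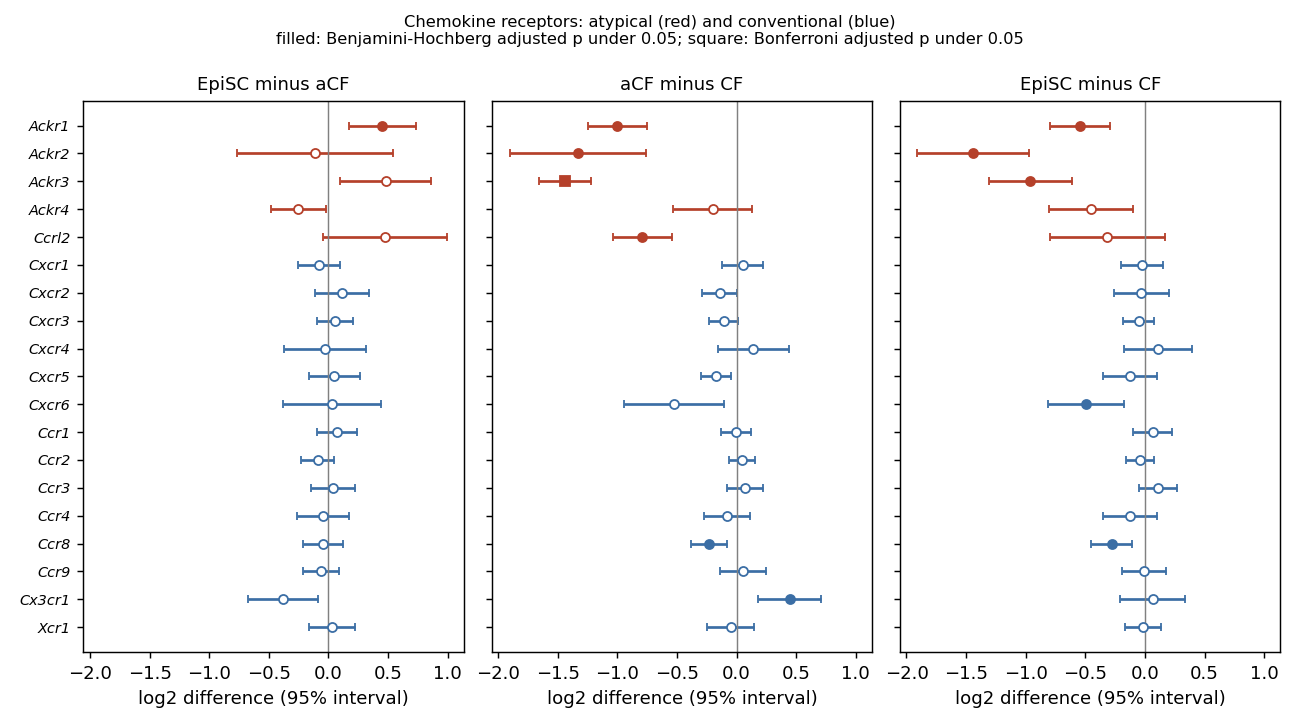
Log2 differences with 95% intervals (limma) for the 19 measured chemokine receptors, atypical ones in red and conventional ones in blue, in EpiSC minus aCF, aCF minus CF and EpiSC minus CF. Filled points passed Benjamini-Hochberg adjustment, and the square, Ackr3 in aCF minus CF, passed Bonferroni adjustment too. All 5 atypical receptors lie left of 0 in aCF minus CF, from -1.44 to -0.20.

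The genes whose values ran most like those of Ackr3 were found by Pearson correlation over the 15 arrays, which share the group differences. They were Tppp3 (r = 0.939), Tmem63a (0.939), Agap1 (0.927), Clec3b (0.926) and 1700019D03Rik (0.923). Tppp3 encodes a tubulin polymerization protein and Clec3b encodes tetranectin, a plasminogen-binding protein. Clec3b was at 0.00, -0.26, 0.23, -0.57 and -0.51 in aCF, against 1.03, 1.15, 1.25, 1.18 and 1.19 in CF, and fell by 1.38 on the log2 scale with a limma Bonferroni adjusted p of 0.0323. Tmem63a fell by 0.73 with a limma adjusted p of 0.00985. Tppp3 at -1.49 and 1700019D03Rik at -1.55 did not pass in the same comparison.

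Agap1, a GTPase-activating protein of membrane trafficking, stands in the row just before Ackr3 in the table and ends 308.698 kb before it on chromosome 1. It fell in aCF relative to CF by 1.07 with a limma Bonferroni adjusted p of 0.0114. The row just after Ackr3, Cops8, differed by 0.08. A pairing that was off by a single row would therefore give Ackr3 either of these differences in place of -1.44.

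**Figure D4:**
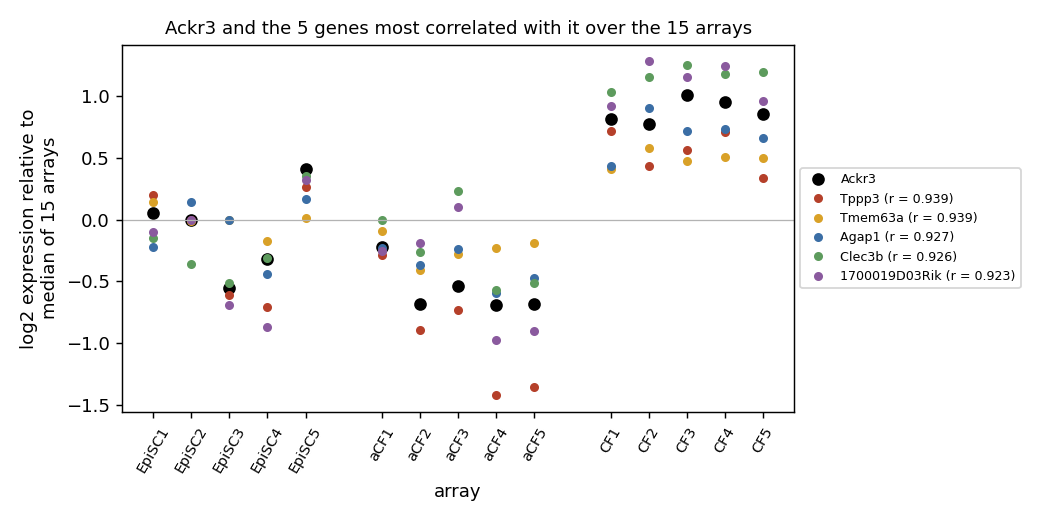
Values of Ackr3 (black) and the 5 genes most correlated with it, as log2 expression with the median of the 15 arrays set to 0, for each array of EpiSC, aCF and CF. In all 5 CF arrays the 6 genes lie above 0.3, and in aCF2, aCF4, aCF5 and EpiSC4 all 6 lie below 0.

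For Cxcl12 the most alike genes were Cetn4 (r = 0.850), Galnt5 (0.819), Podnl1 (0.799), Coq10b (0.797) and Ssh1 (0.787). Their differences of aCF from CF ran from 0.25 to 1.11, and none passed Bonferroni adjustment. For Cxcr4 they were Dcaf7 (0.811), Agxt (0.798), Rims4 (0.783), Tldc2 (0.764) and Mogat2 (0.748), with differences of aCF from CF between -0.04 and 0.21, none of them past the threshold. The members' own spread was not low: the within-group SD was 0.283 for Cxcl12, 0.249 for Ackr3 and 0.238 for Cxcr4, at the 86.0, 80.6 and 78.5 percentiles of the named genes.

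Among other ligands and binding partners of the 2 receptors and of Cxcl12, Penk fell in aCF and Mif rose in EpiSC, each relative to CF. Of 8 measured besides Cxcl12, in aCF against CF 0 passed the Bonferroni threshold as higher and 1 as lower, and 1 and 2 passed Benjamini-Hochberg adjustment, with a median difference of 0.02. The gene that fell was Penk, precursor of enkephalins, opioid peptides that Ackr3 takes up. Penk was at 0.00, -0.41, -0.01, -0.37 and -0.81 in aCF, against 1.58, 2.20, 2.20, 1.69 and 2.06 in CF. It fell by 2.27 ± 0.18 on the log2 scale (SE, limma Bonferroni adjusted p = 0.00239), a call that ended with all 3 groups in the fit (limma adjusted p of 0.176). Penk also differed by -2.40 in EpiSC against CF and there passed Benjamini-Hochberg adjustment only. Adm, precursor of adrenomedullin, which Ackr3 also takes up, differed by -0.49 in aCF and -1.11 in EpiSC, each against CF, and passed Benjamini-Hochberg adjustment only.

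Mif, a cytokine that also binds Cxcr4, rose in EpiSC relative to CF by 0.92 ± 0.07 on the log2 scale (SE, limma Bonferroni adjusted p = 0.00261). It was the only one of the 8 ligands past that threshold in EpiSC against CF, where the list's median was 0.12, against 0.03 over all named genes. In EpiSC against aCF 0 of the 8 passed with limma, 3 were higher and 1 was lower at an unadjusted p under 0.05, the median was 0.08, and Mif at 0.46 and Adm at -0.63 passed Benjamini-Hochberg adjustment only.

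Proteases can cleave and inactivate Cxcl12. Of 10 measured, 1 passed as higher and 0 as lower in aCF against CF, and 2 and 3 passed Benjamini-Hochberg adjustment. Ctsk, the collagen-degrading cathepsin K, rose by 0.91 ± 0.09 (SE, limma Bonferroni adjusted p = 0.0257). That call was lost on leaving out any array of the 2 groups other than aCF4, with a limma adjusted p of up to 0.158, with all 3 groups in the fit (0.0915), after a further quantile normalization (0.0521) and without aCF4 and aCF5 (0.175, with a difference of 0.83). Dpp4, which removes the end of Cxcl12 that receptors need, differed by -1.41 ± 0.23 (SE) in aCF against CF and passed Benjamini-Hochberg adjustment only. In EpiSC against aCF 0 of the 10 passed limma's Bonferroni threshold, at an unadjusted p under 0.05 there were 3 higher and 4 lower, and 4 were lower by Benjamini-Hochberg adjustment, among them Fap at -1.83 and Cpm at -1.60. In EpiSC against CF 0 passed, and 2 were higher and 4 lower by Benjamini-Hochberg adjustment and also at an unadjusted p under 0.05. Nearest to the threshold were Mmp2 at -0.63 and Mmp9 at 0.80, with limma Bonferroni adjusted p-values of 0.114 and 0.148. Without EpiSC5 that of Mmp2 was 0.0402. The medians were -0.03, 0.08 and -0.17 in EpiSC against aCF, aCF against CF and EpiSC against CF.

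Heparan sulphate proteoglycans, which hold Cxcl12 on cell surfaces and matrix, included the syndecans Sdc3 and Sdc4 with opposite changes. Of 20 measured genes, 1 passed as higher and 1 as lower in EpiSC against aCF, and 2 and 6 passed Benjamini-Hochberg adjustment, with a median of -0.25 against 0.03 over all named genes. Sdc3 fell in EpiSC by 1.03 ± 0.09 (SE, limma Bonferroni adjusted p = 0.00708), and without aCF4 and aCF5 the difference was -0.96 with a limma adjusted p of 0.219. Sdc4 rose by 1.22 ± 0.13 (SE, limma adjusted p = 0.0459), a call lost on leaving out any array of the 2 groups other than EpiSC5, with values up to 0.260, and without aCF4 and aCF5 the difference was 1.25 with a limma adjusted p of 1. In aCF against CF 1 of the 20 passed, Hs3st1, a heparan sulphate sulphotransferase, which fell by 1.30 ± 0.13 (SE, limma adjusted p = 0.0242). That call was lost on leaving out any array other than aCF1 or CF5, with a limma adjusted p of up to 0.142, after a further quantile normalization it was 0.0608, and without aCF4 and aCF5 the difference was -1.25 with a limma adjusted p of 0.851. In EpiSC against CF 1 passed, Hspg2, the basement membrane proteoglycan perlecan, which fell by 0.73 ± 0.07 (SE, limma adjusted p = 0.0142), a call lost on leaving out any array other than EpiSC1 or EpiSC2, with values up to 0.0934.

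Among 27 measured genes of receptor signalling and desensitization, the regulators of G protein signalling Rgs5 and Rgs4 had the 2 lowest differences in EpiSC against aCF. In EpiSC against aCF 0 passed as higher and 2 as lower, with a list median of 0.05. Rgs5, also a marker of pericytes, fell by 3.58 ± 0.21 (SE, limma Bonferroni adjusted p = 0.000162), and Rgs4 fell by 2.54 ± 0.25 (SE, limma adjusted p = 0.0294). In aCF against CF, Rgs4 rose by 2.38 ± 0.25 (SE, limma adjusted p = 0.0420) as the only one of the 27 to pass. The first Rgs4 call was lost on leaving out any array other than EpiSC4 or EpiSC5, with a limma adjusted p of up to 0.177, and the second on leaving out any other than CF2 or CF4, with values up to 0.221. Without aCF4 and aCF5, and so with fewer arrays, the differences were -2.46 and 2.30, both with a limma adjusted p of 1. The pericyte and smooth muscle markers, Rgs5 among them, averaged from -1.03 to -0.62 per array in EpiSC, 0.33 to 0.65 in aCF and -0.61 to 0.15 in CF, and their part in these results was not tested. In EpiSC against CF 0 of the 27 passed limma's Bonferroni threshold, while 5 were higher and 7 lower by Benjamini-Hochberg adjustment, and 6 and 7 at an unadjusted p under 0.05. Arrb1, a beta-arrestin, the kind of adaptor that Ackr3 and Cxcr4 recruit, differed by -1.77 in EpiSC and by -1.30 ± 0.16 (SE) in aCF, each against CF, and passed Benjamini-Hochberg adjustment only.

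A list of transcriptional regulators of Cxcl12 and Cxcr4 also held signalling genes such as Tgfb1, Tgfbr1 and Il1b. Its members Ebf1 and Ebf3 are in the stromal niche list below too. Of the 18 measured genes, 1 rose and 1 fell in EpiSC relative to CF. In the other comparisons 0 passed limma's Bonferroni threshold. By Benjamini-Hochberg adjustment 2 were higher and 5 lower in EpiSC against aCF, and 3 and 3 in aCF against CF, where at an unadjusted p under 0.05 the counts were 2 and 7, and 5 and 4. Nearest in EpiSC against aCF were Tgfb1, a fibrogenic growth factor, at -0.74 (limma adjusted p = 0.0696), and Tbx5, a cardiac T-box factor, at 1.34 (limma adjusted p = 0.200). Prrx1, a mesenchymal homeobox factor, rose by 0.64 ± 0.07 in EpiSC relative to CF (SE, limma Bonferroni adjusted p = 0.0304), a call lost on leaving out any single array (limma adjusted p up to 0.193). Foxo1, a forkhead factor, fell by 1.16 ± 0.11 in the same comparison (SE, limma adjusted p = 0.0221), a call lost on leaving out any array other than EpiSC5 or CF5 (limma adjusted p up to 0.144). The medians were -0.05, 0.05 and -0.11 in EpiSC against aCF, aCF against CF and EpiSC against CF.

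Of 13 genes expressed with Cxcl12 in the stromal niche of the bone marrow, 1 passed the threshold in 1 comparison. Lepr, the leptin receptor, which marks Cxcl12-rich marrow stroma in mice, fell by 2.64 ± 0.26 in EpiSC relative to CF (SE, log2 scale, limma Bonferroni adjusted p = 0.0222). The call was lost on leaving out EpiSC2, EpiSC5, CF1, CF2, CF3 or CF5, with p up to 0.142. In the other comparisons 0 of the 13 passed with limma, and 1 was higher and 3 lower in EpiSC against aCF, and 3 and 5 in aCF against CF, by Benjamini-Hochberg adjustment (2 and 7, and 3 and 7, at an unadjusted p under 0.05). In aCF against CF Lepr differed by -1.44 and passed Benjamini-Hochberg adjustment only. The list's medians were -0.31 in EpiSC against aCF, -0.24 in aCF against CF and -0.45 in EpiSC against CF.

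Hypoxia induces Cxcl12 and Cxcr4 in many cells, so its targets were listed too. Of 18 measured, 4 rose and 0 fell in EpiSC relative to CF, with a median of 0.48 against 0.03 over all named genes. By Benjamini-Hochberg adjustment 10 were higher and 1 was lower, Adm, which is also in the ligand list, at -1.11. Slc16a3, a lactate exporter, rose there by 1.73, Slc2a1, a glucose transporter, by 1.47, and Ldha, lactate dehydrogenase, by 1.15, with limma Bonferroni adjusted p-values of 0.000180, 0.000443 and 0.00157. Pgk1, a glycolytic kinase, rose by 1.63 (limma adjusted p = 0.0405), a call lost on leaving out any single array, with values up to 0.238. In EpiSC against aCF, Slc16a3 alone passed the Bonferroni threshold, at 1.24 (limma adjusted p = 0.00294, and 0.0532 after a further quantile normalization), with a list median of 0.52. By Benjamini-Hochberg adjustment 9 of the 18 were higher there and 1 was lower, Adm at -0.63. In aCF against CF 0 of the 18 passed with limma's Bonferroni adjusted p, 5 were higher and 3 lower by Benjamini-Hochberg adjustment, 5 and 6 at an unadjusted p under 0.05, and the median was 0.23. Cxcl12 and Cxcr4 did not pass either adjustment in these comparisons.

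**Figure D5:**
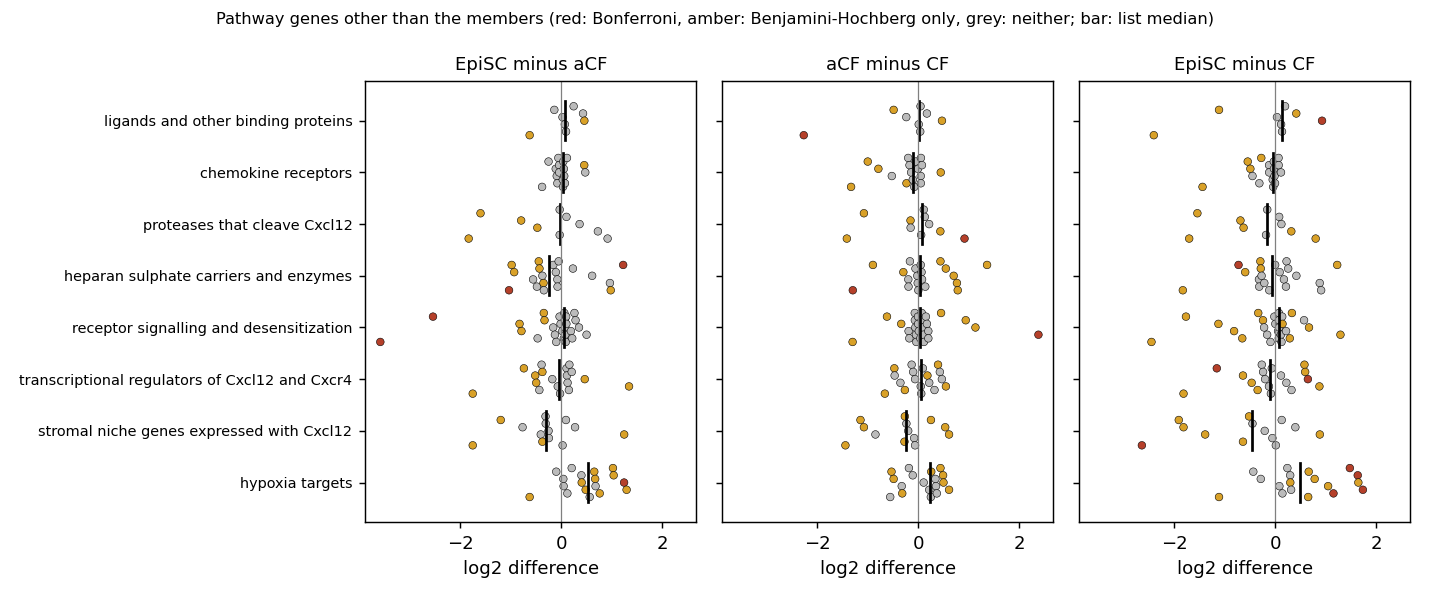
Log2 differences of the measured genes of 8 pathway lists other than Cxcl12, Cxcr4 and Ackr3, in EpiSC minus aCF, aCF minus CF and EpiSC minus CF, with a bar at each list's median. Red points passed Bonferroni adjustment, amber points only Benjamini-Hochberg adjustment and grey points neither. The hypoxia targets have medians of 0.52, 0.23 and 0.48, and the stromal niche genes have medians of -0.31, -0.24 and -0.45.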

How the data were processed

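RNA of 15 samples was hybridised to 15 single-colour Affymetrix arrays after amplification of 1 ng of RNA, per the labels. Per the series design text, the authors normalized probe signals by quantiles in GeneSpring GX 12.5, summarized them with ExonRMA16 and centred each probe set on its median over all samples. The deposited values are log2 values; no source used here names the base, and 2 was taken because RMA works in it and values run from -4.77 to 5.52. The authors' background filter, at the 20th percentile of each array's raw signal, needs levels that centred values lack, so all 22206 probe sets entered the tests. Precision is limited by the number of arrays, and signal over background is not known.

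Identifiers were paired with values by the row offset described in the report, for 15303 rows, of which 13538 have a gene symbol (13513 genes). GEO's platform annotation gave 19572 probe sets 1 symbol, 0 several and 2634 none. Groups were compared in pairs with limma 3.58.1 (lmFit and eBayes, R 4.3.3), 2-sided, with Bonferroni adjustment over all probe sets and a threshold of 0.05, as the design text names for EpiSC against aCF and aCF against CF; EpiSC against CF was added. "Rose" and "fell" are used only for differences past that threshold. Members were also tested by exact permutation of array labels. The fit was tested on simulated data. Alternatives were Benjamini-Hochberg adjustment, 1 fit of all groups, a replicate block, quantile normalization, eBayes with trend and robust options, only paired rows, the pairing as deposited, each array left out, and aCF4 and aCF5 left out.

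The members and all lists were chosen with earlier results of these data known. Named genes are the members, the list genes past the threshold in a comparison (at most 6), otherwise up to 2 with the lowest p, receptors with an unadjusted p under 0.05, and the 5 genes most correlated with each member. Other genes named, such as neighbours in the table, Adm, Dpp4, Arrb1 and Ackr4, were chosen after their values were seen. The arrays most alike shared at most 2.45% of identical values, so no array was counted as a duplicate.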

Additional observations from a re-analysis of the deposited data

Results flagged for a closer look

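Cxcr4 in CF array 4 was at -0.35, while the nearest of the other CF arrays was at -0.01. This gap was 0.756 of the group's whole range, above Dixon's critical value of 0.71 for 5 samples. It was the only one of 9 groups of values tested (3 genes in 3 groups) to exceed it, and chance alone exceeds it in about 1 of 20 groups.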

How the results depend on the processing

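The counts of probe sets past the threshold depended on the processing. Against 148, 340 and 647 probe sets (EpiSC against aCF, aCF against CF and EpiSC against CF), Benjamini-Hochberg adjustment gave 2135, 4023 and 7157. One fit of all groups gave 369 in EpiSC against aCF (178 higher and 191 lower, against 89 and 59) and 1060 in EpiSC against CF. The trend and robust options gave 97 and 212, and leaving out aCF4 and aCF5 gave 50 and 144, in EpiSC against aCF and aCF against CF. Leaving out 1 array at a time gave 73 to 143, 197 to 272 and 369 to 557.

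Same-numbered arrays had correlated deviations of 0.019 to 0.154 (EpiSC and aCF), -0.00876 to 0.156 (aCF and CF) and -0.022 to 0.04 (EpiSC and CF). EpiSC arrays 1, 3, 4 and 5 correlated most with the aCF array of the same number, and EpiSC array 2 with aCF array 1. In aCF and CF, and in EpiSC and CF, only array 1 correlated most with its own number. By the labels CF came from unstressed hearts and EpiSC and aCF from infarcted ones, so CF arrays cannot share hearts with either. Whether same-numbered EpiSC and aCF arrays share hearts is not stated in the sources used here. The main fits did not pair arrays by number. With the replicate number as a block, 41, 94 and 166 probe sets passed, and Ackr3 in aCF against CF kept its difference of -1.44 with a limma adjusted p of 0.0693.

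Among the members, Ackr3 in EpiSC against CF, at -0.96, passed with Benjamini-Hochberg adjustment. With identifiers as deposited Ackr3 was at -0.052 in aCF against CF and -0.062 in EpiSC against aCF, and Cxcr4 was at -1.02 in aCF against CF and -1.384 in EpiSC against CF, since other rows are then read. Cxcl12 in EpiSC against aCF was at 0.035 without aCF4 and aCF5 (cause not tested). With 1 array left out, Cxcr4 in EpiSC against aCF ran from -0.104 to 0.071, Ackr3 from -1.526 to -1.407 in aCF against CF, 0.357 to 0.597 in EpiSC against aCF and -1.083 to -0.843 in EpiSC against CF, and Cxcl12 from 0.2065 to 0.3455 in aCF against CF.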
